A study of Danio rerio with 6 samples.

Results

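The 10 genes described here encode transcription factors of the NF-kB family (*nfkb1*, *nfkb2*, *rela*, *relb*), the proteins that hold them back or modify them (*nfkbiz*, *nfkbiaa*, *nfkbiab*, *nfkbib*) and subunits of the kinase that releases them (*ikbkg*, *ikbkb*). They were taken by symbol from the 32057 Ensembl genes of the count files, and each symbol matched 1 identifier. All 10 passed the filter on low counts. The set was chosen by its measured differences in counts between the same Mcpip1 WT and Mcpip1 DN libraries, so these differences are given as a description, with no test of their own, and support nothing further. Zebrafish embryos of the AB/TL line were injected at the 1-cell stage with mRNA of Mcpip1, an RNase also called Regnase-1, joined through a P2A peptide to the fluorescent protein mTurquoise. Mcpip1 WT embryos received the active form. Mcpip1 DN embryos received the form with the D112N substitution in the catalytic PIN domain. Pools of viable embryos were collected at the shield stage, 6 hours after fertilization (hpf), and RNA of 3 pools per group was sequenced. Both groups thus received *zc3h12a* mRNA, and no uninjected or mTurquoise-only library is analysed here.

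NF-kB factors are dimers of Rel proteins that IkB proteins keep in the cytoplasm of resting cells. When a receptor is engaged, the IKK complex phosphorylates IkB, which is then degraded, and the freed dimers enter the nucleus and induce many genes, that of IkB alpha among them. The pathway is best known from immunity, but its Drosophila counterpart, Dorsal, patterns the dorsoventral axis of the embryo, and in zebrafish IkB alpha has been linked to notochord formation. In mammals, Regnase-1 cuts stem-loops in the 3′ ends of inflammatory mRNAs, and *Nfkbiz* mRNA is among its described targets. In the whole embryos studied here, fewer cells expressing a gene and less RNA per cell cannot be told apart.

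The gene counts summed to between 22581287 and 24662219 per library in Mcpip1 WT and between 17686041 and 23944732 in Mcpip1 DN. *Zc3h12a* (ENSDARG00000005271), the gene of Mcpip1, was at 170239, 22303 and 22767 normalized counts for Mcpip1 WT replicates 1, 2 and 3, against 36491, 16111 and 7907 in Mcpip1 DN replicates 1, 2 and 3. Normalized counts are counts brought to 1 common library size, the mean over the 6 libraries after TMM scaling. The *zc3h12a* groups overlapped, and Mcpip1 WT replicate 1 stood far above the other libraries. The fitted log2 fold change of *zc3h12a*, Mcpip1 WT over Mcpip1 DN, was 1.83 (standard error 0.78), past the threshold given below. Another identifier with the same name (ENSDARG00000101034) had 9.13 to 141 normalized counts in Mcpip1 WT and 56.5 to 183 in Mcpip1 DN. On the first principal component, which held 35.9% of the variance, Mcpip1 WT replicate 2 and Mcpip1 DN replicate 1 lay apart at 66.1 and 101, and the other 4 libraries lay between -70.9 and -18.4. On the second, which held 22.7%, Mcpip1 WT replicate 1 lay apart at -102, and the other libraries lay between 0.40 and 60.3. All 17 markers of the gastrula were counted in every library, as the labelled stage implies. Their summed level was 112564, 150715 and 62555 normalized counts in Mcpip1 WT, against 150148, 79728 and 87276 in Mcpip1 DN. It was highest in the pair that lay apart on the first component. *Gsc*, a gene of the organizer, had 1485, 1945 and 781 normalized counts in Mcpip1 WT, against 2272, 1024 and 1450.2 in Mcpip1 DN, and *chrd*, which encodes the BMP antagonist Chordin, had 10739, 10789 and 4280 in Mcpip1 WT, against 10785, 7542 and 4096 in Mcpip1 DN. Among 14 identifiers of leukocyte and blood markers, whose summed level was 3451 to 6217 normalized counts in Mcpip1 WT and 3996 to 9391 in Mcpip1 DN, *lcp1* (L-plastin) held most, with 3012 to 5697 in Mcpip1 WT and 3430.1 to 8003 in Mcpip1 DN. *Spi1b* (PU.1) had 6.61 to 104 in Mcpip1 WT and 13.9 to 139 in Mcpip1 DN. Of the 14 identifiers, 4 passed the filter on low counts and 3 had no count in any library. *Ptprc* (CD45) had no count in Mcpip1 WT and between 1 and 2 counts in Mcpip1 DN, and *lyz* (lysozyme) had none in any library. In edgeR's quasi-likelihood test of all 16126 genes tested, 141 were higher and 204 lower in Mcpip1 WT at the threshold of the study (fold change over 1.5 and p under 0.05 before adjustment). After Benjamini-Hochberg adjustment none of them was under 0.05 in that test, while 356 genes, or 2.21%, were under it before adjustment. The study itself used DESeq2 for differential expression, so its threshold is applied here to another test. On the same genes, DESeq2 put 183 higher and 242 lower in Mcpip1 WT at that threshold, and it left 1 gene after adjustment.

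*Nfkbiz* (ENSDARG00000102097), which encodes the nuclear protein IkB zeta, was the member with the widest range and the largest difference. In mammals, IkB zeta joins NF-kB p50 on chromatin and is needed for secondary response genes such as *Il6*. Its normalized counts were 73.0, 209 and 71.9 in Mcpip1 WT replicates 1, 2 and 3, against 576, 307 and 156 in Mcpip1 DN replicates 1, 2 and 3. The groups overlapped, since Mcpip1 WT replicate 2 lay above Mcpip1 DN replicate 3. The Poisson 95% intervals of these 2 libraries, from 204 and 159 counts, were 181 to 240 and 133 to 182 normalized counts, and these intervals cover counting error only. The mean was 118 ± 78.8 in Mcpip1 WT and 346 ± 213 in Mcpip1 DN (SD, n = 3 each), which corresponds to a fitted log2 fold change of -1.55 (standard error 0.59), or 2.93-fold lower in Mcpip1 WT.

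*Nfkbiz* was the 1 member past the threshold of the study, and it was lower in Mcpip1 WT. Of all genes tested, 1.27% were past it in that direction, 0.874% in the other and 2.14% in either. The direction held with each library left out in turn, with log2 fold changes that reached -2.25 when Mcpip1 WT replicate 2 was left out and -0.97 when Mcpip1 DN replicate 1 was. Such fits share most of their libraries, so nothing is read from the direction. *Nfkbiz* was not past the threshold in 3 of these 6 fits, those without Mcpip1 WT replicate 1, Mcpip1 WT replicate 3 or Mcpip1 DN replicate 1. When Mcpip1 WT replicate 2 and Mcpip1 DN replicate 1 were both left out, the log2 fold change was -1.68 (standard error 0.56). In the 4 libraries that then remained, *nfkbiz* had 73.0 and 71.9 normalized counts in Mcpip1 WT, against 307 and 156 in Mcpip1 DN. Mcpip1 WT replicate 2, left out here, was the library that made the groups overlap. The lack of overlap among the rest therefore follows from that choice, and nothing is read from it.

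*Nfkbiz* and *zc3h12a* were ordered differently among the Mcpip1 WT libraries and in the same order among the Mcpip1 DN libraries. Mcpip1 WT replicates 2 and 3 had near-equal *zc3h12a*, at 22303 and 22767 normalized counts, and 209 and 71.9 normalized counts of *nfkbiz*. Mcpip1 WT replicate 1 had 170239 normalized counts of *zc3h12a* and nearly the same *nfkbiz* as replicate 3. Mcpip1 DN replicates 1, 2 and 3 had 36491, 16111 and 7907 normalized counts of *zc3h12a* beside 576, 307 and 156 of *nfkbiz*, so both were highest in replicate 1 and lowest in replicate 3. With 3 libraries in a group, this is a description only.

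Summed markers of embryonic layers and of stage matched the order of *nfkbiz* only in part. Those of the enveloping layer and yolk syncytial layer, 11 of 11 of them tested and none at 0, reached 228706, 256638 and 135889 normalized counts in Mcpip1 WT, against 299212, 210367 and 186572 in Mcpip1 DN. Within Mcpip1 DN this is the order of *nfkbiz*. Within Mcpip1 WT both were highest in replicate 2, but *nfkbiz* was nearly equal in replicates 1 and 3, at 73.0 and 71.9. Mcpip1 WT replicate 1 lay above Mcpip1 DN replicates 2 and 3 in this sum and below them in *nfkbiz*. The summed gastrula markers were highest in the same library of each group as *nfkbiz*, but the other Mcpip1 DN libraries were in the other order. The 11 maternal markers, all tested, summed to 60535, 46069 and 66999 normalized counts in Mcpip1 WT, against 41794, 48660 and 47995 in Mcpip1 DN, and were lowest in Mcpip1 WT replicate 2 and Mcpip1 DN replicate 1. The part of layer makeup and stage in the *nfkbiz* values was not tested. *Tbxta*, a T-box gene of the margin and notochord, had 8696, 14035 and 2981 normalized counts in Mcpip1 WT, against 13343, 7787 and 5063 in Mcpip1 DN, and was likewise highest in Mcpip1 WT replicate 2 and Mcpip1 DN replicate 1.

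**Figure D1:**
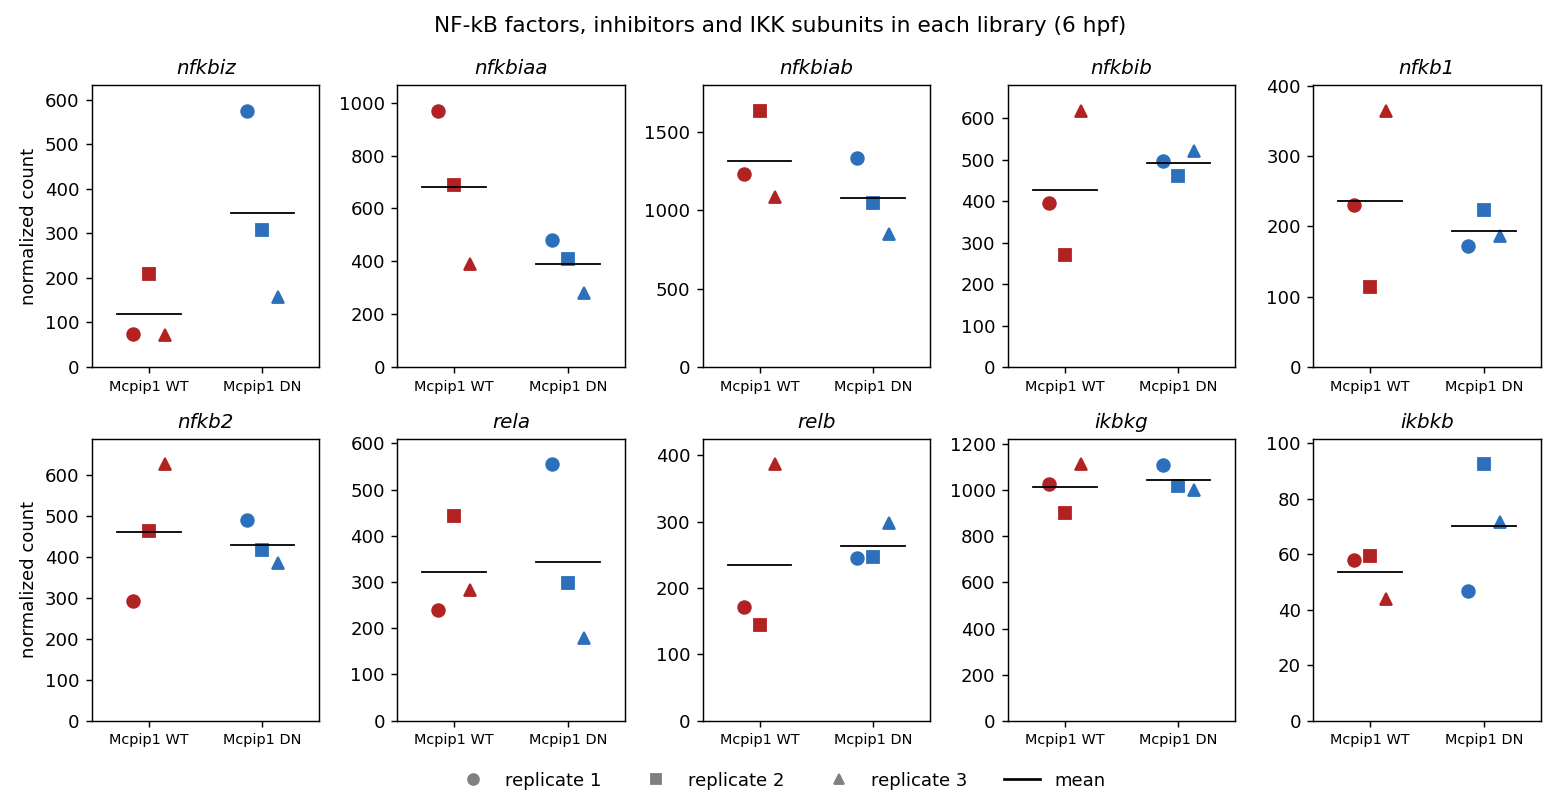
Normalized counts (linear axes from 0, 1 panel per gene) of the 10 NF-kB genes in the 3 Mcpip1 WT libraries (red, left) and the 3 Mcpip1 DN libraries (blue, right) at 6 hpf, with marker shape giving the replicate number and a black line the group mean. *Nfkbiz* is at 71.9 to 209 in Mcpip1 WT and 156 to 576 in Mcpip1 DN, and the groups overlap in every panel.

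The IkB alpha genes lay in the other direction from *nfkbiz*, with groups that overlapped. *Nfkbiaa* (ENSDARG00000005481) and *nfkbiab* (ENSDARG00000007693) both encode IkB alpha, which binds the p65 dimers, and whose gene is itself induced by NF-kB in vertebrates. *Nfkbiaa* had 970.3, 687 and 388 normalized counts in Mcpip1 WT, against 481, 409.9 and 282 in Mcpip1 DN. Mcpip1 WT replicates 1 and 2 lay above every Mcpip1 DN library, and Mcpip1 WT replicate 3 lay among them, so the groups overlapped. Its fitted log2 fold change was 0.80 (standard error 0.40), the largest positive value among the members, and was not past the threshold of the study. It was 0.46 without Mcpip1 WT replicate 1, the library with the most *zc3h12a*, and 1.08 without Mcpip1 WT replicate 3, where it passed the threshold.

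*Nfkbiab* had 1229, 1635 and 1086 normalized counts in Mcpip1 WT, against 1330.3, 1046 and 851 in Mcpip1 DN. These groups overlapped as well, and the log2 fold change of 0.29 was close to its standard error of 0.29. In both IkB alpha genes the lowest library of each group was its replicate 3. *Nfkbib* (ENSDARG00000030087), which encodes IkB beta, had 395, 270.3 and 619 normalized counts in Mcpip1 WT, against 496, 461 and 522 in Mcpip1 DN. The Mcpip1 DN libraries of *nfkbib* lay close together, with an SD of 30.7 around 493, and the Mcpip1 WT libraries lay on both sides of them, with an SD of 176 around 428. For *nfkbib* the log2 fold change was -0.20 (standard error 0.37).

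None of the 4 genes of Rel family factors was past the threshold. *Rela* (ENSDARG00000098696) encodes p65, the activating subunit of the classical dimer. It had 239, 443 and 282 normalized counts in Mcpip1 WT, against 555, 297 and 179.6 in Mcpip1 DN. Here Mcpip1 WT replicate 2 and Mcpip1 DN replicate 1 were the highest of their groups, as for *nfkbiz*, but the Mcpip1 DN libraries spread around those of Mcpip1 WT. The log2 fold change was -0.09 (standard error 0.46), and its sign turned to 0.43 without Mcpip1 DN replicate 1.

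*Nfkb1* (ENSDARG00000105261) encodes p105, the precursor of p50, the usual partner of p65. It had 230.2, 114 and 365 normalized counts in Mcpip1 WT, against 172, 223 and 186 in Mcpip1 DN. Mcpip1 WT held both the lowest and the highest library, and the log2 fold change was 0.29 (standard error 0.48). *Nfkb2* (ENSDARG00000038687) encodes p100, the precursor of p52 in the alternative pathway. It had 293, 465 and 628 normalized counts in Mcpip1 WT, against 490.3, 417 and 385 in Mcpip1 DN, and the log2 fold change was 0.10 (standard error 0.36).

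*Relb* (ENSDARG00000086173), whose product pairs with p52, had 171, 144 and 387 normalized counts in Mcpip1 WT, against 245, 247 and 298 in Mcpip1 DN. Mcpip1 WT replicates 1 and 2 lay below every Mcpip1 DN library and replicate 3 above all of them. Its fitted log2 fold change was -0.17 (standard error 0.45), and -0.74 without Mcpip1 WT replicate 3, which was not past the threshold. In *nfkb1*, *nfkb2*, *relb*, *nfkbib* and *ikbkg*, Mcpip1 WT replicate 3 was the highest of the 6 libraries and the spread was wider in Mcpip1 WT than in Mcpip1 DN.

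The IKK subunits differed in how much they varied. *Ikbkg* (ENSDARG00000017037) encodes NEMO, the scaffold of the IKK complex without kinase activity. It was the steadiest member, with 1028, 902 and 1114 normalized counts in Mcpip1 WT, against 1110.0, 1021 and 1004 in Mcpip1 DN. The highest library was 1.24 times the lowest, and its pooled within-group SD of 0.12 on the log2 CPM scale was at percentile 1.15 of all genes tested, where the median was 0.57. The log2 fold change was -0.04 (standard error 0.26), a standard error that comes from the spread shared across genes as well as from *ikbkg* itself.

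*Ikbkb* (ENSDARG00000079123), which encodes the kinase IKK beta that phosphorylates IkB alpha, had the fewest counts of the 10 genes. It had 57.8, 59.4 and 43.8 normalized counts in Mcpip1 WT, against 46.8, 92.5 and 71.6 in Mcpip1 DN. Mcpip1 DN replicate 1 lay within the range of Mcpip1 WT. The log2 fold change was -0.39 with the largest standard error of the 10 genes, 0.66, from 34 to 100 counts per library, and it was not past the threshold.

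**Figure D2:**
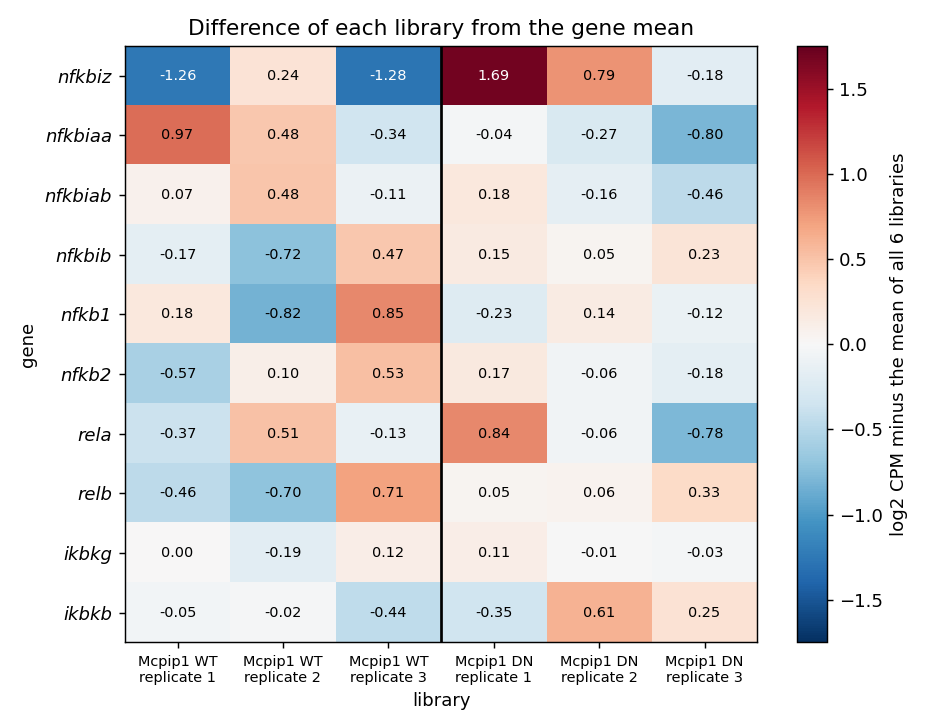
Difference of each library (columns) from the mean of the 6 libraries for each gene (rows), in log2 CPM, with Mcpip1 WT left of the black line and Mcpip1 DN right of it, red above the mean and blue below it. *Nfkbiz* is at -1.26 and -1.28 in Mcpip1 WT replicates 1 and 3 and at 1.69 in Mcpip1 DN replicate 1, and *ikbkg* stays between -0.19 and 0.12.

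Of the 10 genes, 4 had a positive and 6 a negative log2 fold change, with a median of -0.07, beside a median of 0.01 over all genes tested. In none of the 10 did the groups fail to overlap, and 8.06% of all genes tested had groups that did not overlap, 3.97% with Mcpip1 WT higher and 4.08% with Mcpip1 WT lower. With each library left out, the sign of *nfkbib*, *nfkb1*, *nfkb2*, *rela*, *relb* and *ikbkg* turned in at least 1 fit, while the sign of *nfkbiz*, *nfkbiaa*, *nfkbiab* and *ikbkb* held in all 6. These fits share most of their libraries, and the set was chosen by these same differences. A sign that held is therefore a description only.

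**Figure D3:**
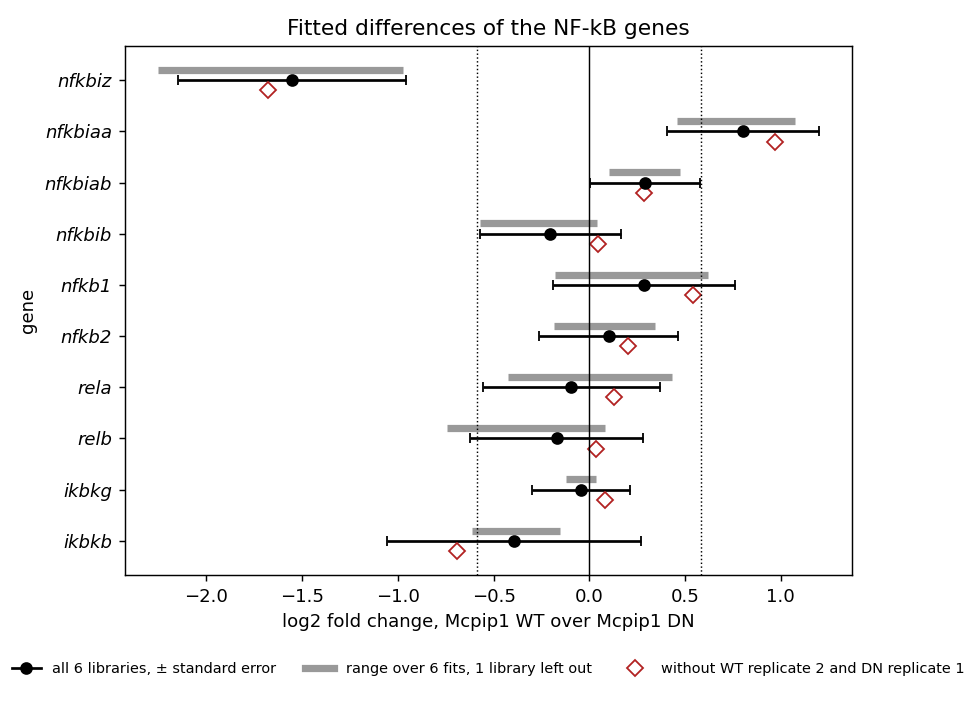
Log2 fold change of Mcpip1 WT over Mcpip1 DN for each gene. Black points are values from all 6 libraries, with bars of ± 1 standard error derived from edgeR's F statistic. Grey bars are the range over the 6 fits with 1 library left out. Open red diamonds are the value when both libraries that lay apart on the first principal component were left out. Dotted lines mark a fold change of 1.5, and *nfkbiz* at -1.55 is below its line in all of these fits. The threshold of the study also needs p under 0.05, and *nfkbiz* was past it in only 3 of the 6 fits with 1 library left out.

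The ratio of the counts of one member to those of another within a library does not depend on how libraries were scaled. *Nfkbiz* counts per *nfkbiaa* count were 0.0752, 0.304 and 0.185 in Mcpip1 WT replicates 1, 2 and 3, against 1.20, 0.749 and 0.554 in Mcpip1 DN replicates 1, 2 and 3. Every Mcpip1 WT library lay below every Mcpip1 DN library. *Nfkbiz* counts per *rela* count were 0.305, 0.471 and 0.254 in Mcpip1 WT, against 1.04, 1.03 and 0.869 in Mcpip1 DN, again without overlap. Per *nfkbiab* count they were 0.0594, 0.128 and 0.0662 in Mcpip1 WT, against 0.433, 0.294 and 0.183 in Mcpip1 DN. These were the 3 of 45 pairs of members whose ratio did not overlap between the groups, all among the 9 pairs with *nfkbiz*, and they are named after their values were seen. Of 14500 other tested genes counted in every library, 25.6% had a ratio to *nfkbiz* without overlap, so nothing particular to the members is read from these pairs. The ratio to *nfkbiaa* holds the 2 members that differed most in opposite directions.

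Upstream of IKK, signals pass from receptors through adaptors such as MyD88 and TRAF6 to the kinase TAK1. A list for IKK activation had 57 identifiers, mostly of receptors, adaptors and kinases, and also held a ligand, IKK alpha itself and IKK-related kinases. Of these identifiers, 42 passed the filter on low counts, and 0 were past the threshold in either direction, beside 2.14% of all genes tested. Their median log2 fold change was -0.06. *Map3k7*, which encodes TAK1, had 3569, 2933 and 3896 normalized counts in Mcpip1 WT, against 2574, 3805 and 4621 in Mcpip1 DN, and overlapped between the groups. *Chuk*, which encodes IKK alpha, had 1917, 1160.0 and 2330 normalized counts in Mcpip1 WT, against 1463, 2471 and 2298 in Mcpip1 DN, with a log2 fold change of -0.20.

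In this list the groups did not overlap for *irak4* and *sqstm1*, both higher in Mcpip1 WT, and 3.97% of all genes tested did so in this direction. *Irak4*, the first kinase recruited to MyD88, had 79.1, 58.4 and 66.9 normalized counts in Mcpip1 WT, against 22.0, 41.6 and 9.81 in Mcpip1 DN, and the log2 fold change was 1.47 (standard error 0.83). *Sqstm1*, which encodes the adaptor and autophagy receptor p62, had 1174, 1146 and 789.6 normalized counts in Mcpip1 WT, against 638, 745 and 757 in Mcpip1 DN, and the log2 fold change was 0.54 (standard error 0.29). Neither was past the threshold with all 6 libraries.

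Among 24 identifiers of other Rel and IkB proteins and of nuclear cofactors, all tested, 0 were higher and 1 was lower past the threshold. Of all genes tested, 0.874% were higher and 1.27% lower past it. The median log2 fold change of the list was -0.03. The lower gene was *hdac1* (ENSDARG00000015427), a histone deacetylase that acts as corepressor of many factors and is not specific to NF-kB. It had 11779, 22061 and 13356 normalized counts in Mcpip1 WT, against 32828, 28399 and 22668 in Mcpip1 DN. Every Mcpip1 WT library lay below every Mcpip1 DN library. The same held for 2 of the 24 identifiers, *hdac1* included, beside 4.08% of all genes tested. On the log2 scale the difference was -0.83 (standard error 0.31), and edgeR's quasi-likelihood test gave an adjusted p of 1.00 (0.0220 unadjusted). It was between -1.15 and -0.66 with each library left out, and was not past the threshold without Mcpip1 WT replicate 1, Mcpip1 WT replicate 3, Mcpip1 DN replicate 1 or Mcpip1 DN replicate 2.

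The remaining family members did not pass the threshold. *Nfkbie*, which encodes IkB epsilon, had 476, 594 and 399.7 normalized counts in Mcpip1 WT, against 392, 328 and 511 in Mcpip1 DN. *Rel*, which encodes c-Rel, had 27.4, 24.6 and 47.1 normalized counts in Mcpip1 WT, against 33.1, 56.4 and 68.7 in Mcpip1 DN. *Bcl3*, which encodes a nuclear IkB protein related to IkB zeta, had 18, 0 and 73 counts in Mcpip1 WT, against 1, 69 and 64 counts in Mcpip1 DN. It was at or near 0 in Mcpip1 WT replicate 2 and Mcpip1 DN replicate 1, the libraries where *nfkbiz* was highest in its group. These libraries also lay apart on the first principal component, and the pooled within-group SD of *bcl3* was at percentile 99.4 of all genes tested. No link between *bcl3* and *nfkbiz* is read from this.

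Of 27 identifiers, mostly of negative regulators other than IkB proteins, 23 were tested. Of these, 0 were past the threshold in either direction, beside 2.14% of all genes tested, and the median log2 fold change was -0.03. *Tnfaip3*, which encodes the ubiquitin-editing enzyme A20 and is one of the most strongly NF-kB-induced genes of mammals, had between 1 and 12 counts in Mcpip1 WT and between 0 and 16 counts in Mcpip1 DN, and did not pass the filter. *Itcha*, one of the zebrafish genes of the ubiquitin ligase Itch, had 300.1, 398 and 345 normalized counts in Mcpip1 WT, against 289, 244 and 239 in Mcpip1 DN. It was the 1 of 23 genes of this list without overlap, beside 8.06% of all genes tested, with a log2 fold change of 0.43 (standard error 0.35).

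Some mRNAs that NF-kB induces in immune cells had few or no counts, and others had many. Of 55 identifiers of induced mRNAs, 9 (16.4%) had no count in any library and 32 (58.2%) were tested, beside 23.4% and 50.3% of all 32057 genes. *Tnfa* had 0 counts in every Mcpip1 WT library and 0, 0 and 2 counts in Mcpip1 DN, and *cxcl8a*, which encodes the neutrophil attractant interleukin 8, had none in any library. At a count of 0, the one-sided 95% Poisson upper limit is about 3 counts. *Il6*, whose mRNA is a target of Regnase-1 in mammals and whose gene needs IkB zeta there, had 0, 0 and 8 counts in Mcpip1 WT, against 15, 13 and 5 counts in Mcpip1 DN. Its groups overlapped, it did not pass the filter, and no fold change is given. *Il1b* had 19, 12 and 29 counts in Mcpip1 WT, against 37, 41 and 10 counts in Mcpip1 DN, and the groups overlapped as well. *Tnfb* was counted in every library, with 52, 70 and 26 counts in Mcpip1 WT, against 19, 90 and 146 in Mcpip1 DN. *Cebpb* had 6700 to 13841 normalized counts in Mcpip1 WT and 7736 to 16194 in Mcpip1 DN.

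None of the 32 tested genes was past the threshold. Their log2 fold changes ran from -2.98 to 2.41 with a median of -0.06, and 15 were positive and 17 negative. Groups did not overlap for 2 of the 32, *atf3* and *bcl2l1*, beside 8.06% of all genes tested. *Atf3*, a stress-induced transcription factor, had 86.2, 65.5 and 111 normalized counts in Mcpip1 WT, against 46.8, 48.1 and 31.4 in Mcpip1 DN, and the log2 fold change was 1.06 (standard error 0.65). *Bcl2l1*, which encodes the anti-apoptotic protein Bcl-xL, had 498, 543 and 559 normalized counts in Mcpip1 WT, against 1008, 736 and 679 in Mcpip1 DN. On the log2 scale the difference was -0.60 (standard error 0.30), and edgeR's quasi-likelihood test gave an adjusted p of 1.00 (0.0705 unadjusted).

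*Bcl2l1* is also among the mRNAs described as Regnase-1 targets in mammals. That list had 20 identifiers, 12 of them tested, and shares genes with the lists of induced mRNAs and of family members. Of the 12, 0 were past the threshold in either direction, beside 2.14% of all genes tested. The log2 fold change was positive in 4 and negative in 8. Its median was -0.18, beside 0.01 over all genes tested. *Bcl2l1* was the 1 of the 12 without overlap, beside 8.06% of all genes tested. *Nfkbiz* was not counted in it. *Tfr1a* and *tfr1b*, the transferrin receptor genes, lay on opposite sides of 0, at 0.67 and -0.24 on the log2 fold change scale. The identifiers listed as PTGS2 (ENSDARG00000004539 and ENSDARG00000010276), prostaglandin synthase genes that the name table does not tell apart, had log2 fold changes of -0.03 and 0.41.

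**Figure D4:**
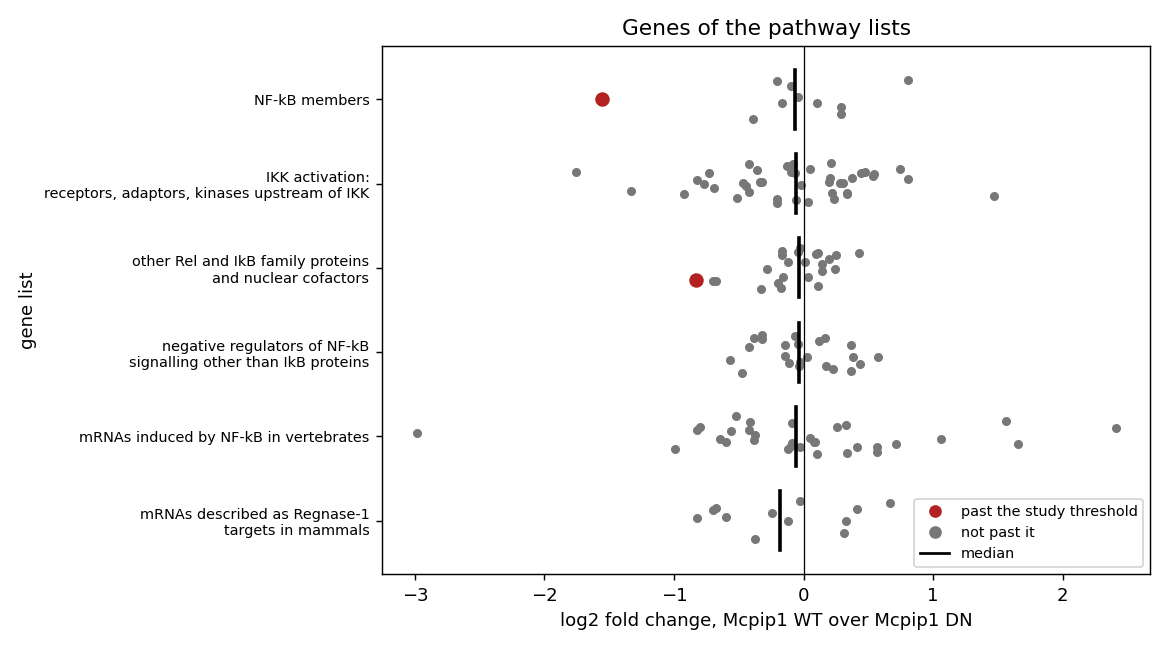
Log2 fold change of Mcpip1 WT over Mcpip1 DN for each tested gene of the NF-kB members and the 5 lists (rows), with black bars at the medians and red points past the threshold of the study. The 2 red points are *nfkbiz* at -1.55 and *hdac1* at -0.83, and all 6 medians lie between -0.18 and -0.03.

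Across the 6 libraries, the genes whose log2 CPM (a log2 count relative to library size) was most like that of *nfkbiz* included *frk* (ENSDARG00000027807), the gene of a Src-related tyrosine kinase, and *srsf6* (ENSDARG00000016783), that of a splicing factor. Their Pearson's r of 0.999 and 0.992 describes 6 points that share depth, scaling and a first principal component, and comes from the extremes of 16126 genes. *Frk* had 242, 442 and 244 normalized counts in Mcpip1 WT, against 828, 539 and 388 in Mcpip1 DN, and overlapped between the groups as *nfkbiz* did, with Mcpip1 WT replicate 2 above Mcpip1 DN replicate 3. The lowest r was that of *irf5* (ENSDARG00000045681, r = -0.993), which encodes an interferon regulatory factor activated downstream of MyD88, followed by *syt7* (ENSDARG00000078060, r = -0.979), the gene of a synaptotagmin, and *pigs* (ENSDARG00000017813, r = -0.979), a gene of GPI anchor attachment. *Irf5* had 645, 416 and 664 normalized counts in Mcpip1 WT, against 273, 353 and 521 in Mcpip1 DN, and overlapped too. Among the other members, r to *nfkbiz* ranged from -0.55 (*nfkb1*) to 0.66 (*rela*).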

How the data were processed

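Per the submitters' processing notes and the study's methods, the authors aligned reads to GRCz11 with STAR 2.7.10a and Bowtie2 2.4.4 and deposited HTSeq counts per Ensembl gene, neither normalized nor filtered. The HTSeq version, strand setting and Ensembl release are not given in the sources used here, so reads of overlapping or antisense genes and of close copies such as *nfkbiaa* and *nfkbiab* may be misplaced. The 5 rows of reads assigned to no gene, 16.5 to 26.1% of each library, were left out. The name table gave symbols for 28988 of 32057 identifiers, and all 10 members matched exactly.

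Genes were kept with edgeR's filterByExpr at a minimum count of 10, scaled with TMM and fitted over all 6 libraries with the quasi-likelihood test (R 4.3.3, edgeR 4.0.16, limma 3.58.1), after the steps were tested on simulated data. Standard errors were derived from that test, as the absolute log2 fold change divided by the square root of its F statistic. DESeq2 1.42.0, other scalings and filters, a replicate block and fits without libraries were the alternatives. The members and gene lists were chosen with earlier results of these data known. Besides the members and *zc3h12a*, the genes named were all list genes past the threshold, otherwise the 2 largest changes in each direction without overlap, the 3 highest (1 of them not reported here) and 3 lowest r to *nfkbiz*, and 6 markers; *lyz* and other pathway genes with values, among them *map3k7*, *chuk*, *tfr1a* and *il6*, were chosen after their values were seen. Labels do not say whether replicate pools came from separate clutches, so the p-values measure a spread that may be technical. Reads carry no molecular identifiers.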

Additional observations from a re-analysis of the deposited data

How the results depend on the processing

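The log2 fold changes of all 10 members kept their sign under DESeq2, its size factors, TMM without *zc3h12a*, no filter and a minimum count of 50. Without Mcpip1 WT replicate 2 and Mcpip1 DN replicate 1 together, *nfkbib* was at 0.05, *rela* at 0.13, *relb* at 0.03 and *ikbkg* at 0.08, each negative with all libraries. The counts of genes past the threshold, 141 higher and 204 lower, were 336 and 432 among all 24567 genes with at least 1 count, and 262 and 443 without that pair, which was known from earlier results to stand apart. With 1 library left out they were 54 to 272 higher and 68 to 507 lower, both lowest when Mcpip1 WT replicate 1 was dropped, with the most higher genes after dropping Mcpip1 WT replicate 3 and the most lower genes after dropping Mcpip1 WT replicate 2. Adjusted p was under 0.05 for 1 gene with DESeq2, 9 with all genes and 3 without that pair. Of the members, 1 was higher (*nfkbiaa*) with all genes, and 0 to 1 were higher and 0 to 1 lower with 1 library left out. Of the list for IKK activation, 1 was higher with all genes, 2 without the pair, and 0 to 1 higher and 0 to 1 lower with 1 library left out. Of the list of other Rel and IkB proteins and nuclear cofactors, 0 to 1 were lower with 1 left out, and the gene was *hdac1*. Of the list of mostly negative regulators, 1 was higher without the pair, and 0 to 1 higher and 0 to 1 lower with 1 left out. Of the induced mRNAs, 1 was higher with DESeq2, 2 with all genes, and 2 higher and 2 lower without the pair, with 0 to 2 higher and 0 to 3 lower with 1 left out. The cause was not tested.

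Whether the replicate numbers pair the libraries is not known. Deviations from the group mean correlated at 0.0065, -0.083 and 0.30 for same-numbered libraries. For differently numbered libraries they correlated at between -0.36 and 0.29. Deviations within a group are not independent of each other, so these values do not decide it. With a replicate block, 144 genes were higher and 288 lower, 1 member was higher (*nfkbiaa*, log2 fold change 0.74) and *rela* was at 0.02. In that fit 1 gene of the list for IKK activation was lower and 1 induced mRNA higher. Genes with few counts, such as *il6*, did not pass the filter and have no fold change.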
